A study of Mus musculus with 7 samples.

Results

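Arteries, capillaries and veins are lined by endothelial cells that differ in the genes they use, and the 10 genes described here are markers of the arterial kind that are not themselves Notch receptors, ligands or Hey targets. They were taken by gene symbol: Gja4, Gja5, Efnb2, Bmx, Sox17, Cxcr4, Fbln5, Mgp, Unc5b and Sema3g, which are 10 of the 22180 genes with a probe set of exactly 1 symbol. Each gene had 1 such probe set, and all 10 were among the 16637 genes tested. RNA of lung endothelial cells from E18.5 mouse embryos, close to term, was hybridised to 7 single-colour Affymetrix arrays. Names WT 1 to WT 3 are used for the 3 arrays labelled wild-type and KO 1 to KO 4 for the 4 labelled Sash1-knockout. The KO embryos were Sash1-/- and the WT embryos their wild-type littermates, all with a C57BL/6 background. Both groups were untreated as far as the labels say, and cells were sorted as viable CD31+, CD45- and CD326- cells, where CD31 marks endothelium, CD45 leukocytes and CD326 epithelium. The labels name no Cre driver, no deleted exon, no litter, and no count of embryos per sample. A p-value here thus reflects the scatter among these samples, some of which may be technical.

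In an artery, endothelial cells are joined by gap junctions built from connexins, display ephrin-B2 where veins display its receptor EphB4, and sit on an elastic wall. Transcription factors of the SoxF group act early in setting this identity, and the chemokine receptor CXCR4 marks arterial and tip cells that respond to CXCL12. Most endothelial cells of a late fetal lung are capillary cells, so arterial cells are a minor share of such a sort. In such bulk RNA, fewer arterial cells and less RNA per arterial cell cannot be told apart.

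Checks of the samples came first. Pecam1, which encodes CD31, measured 11.08 to 11.14 in log2 signal on the WT arrays and 11.03 to 11.21 on the KO arrays, and the VE-cadherin gene Cdh5 measured 11.93 to 11.97 and 11.83 to 11.97. Epithelial genes had signal too, and it was unequal. The mean of 10 was 8.36, 8.06 and 7.21 on the WT arrays and 8.08, 7.49, 8.13 and 6.65 on the KO arrays. Of these, 8 were lower on the KO arrays, where 54.4% of all tested genes were higher, and 0 were called. Sftpc, 1 of them, was as bright as Cdh5 on the WT arrays (11.97, 11.90 and 11.92), and read 12.00, 11.86, 11.97 and 10.20 on the KO arrays. Sash1 lay at 8.33 to 9.02 on the WT arrays and 8.13 to 8.68 on the KO arrays, so the labels overlapped. WT 3 (8.33) lay within the KO range and KO 3 (8.68) within the WT range. With no deleted exon named, whether this probe set reads the removed part is not known, so Sash1 could not check the labels. Groups are therefore named by label, and directions rest on the labels. Xist was low and Y-linked genes high on WT 1 and KO 2, the reverse of the other 5.

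The promoters of 8 of the 10 genes were found in RefSeq (GRCm38.p6). Shown are the 250 bases before the annotated start of Cxcr4 and Gja5, which had the largest differences between labels, of Gja4, the other connexin gene, and of Efnb2, which held a TATA match in reverse letters only. They lie at chr1:128592300-128592549 on the minus strand, chr3:97032152-97032401 on the plus strand, chr4:127314040-127314289 on the minus strand and chr8:8661243-8661492 on the minus strand. Each reads 5′ to 3′ along its gene, and capitals mark a TATA match (TATAAA or its reverse TTTATA) or a SOX core (ACAAT or its reverse ATTGT).
Cxcr4: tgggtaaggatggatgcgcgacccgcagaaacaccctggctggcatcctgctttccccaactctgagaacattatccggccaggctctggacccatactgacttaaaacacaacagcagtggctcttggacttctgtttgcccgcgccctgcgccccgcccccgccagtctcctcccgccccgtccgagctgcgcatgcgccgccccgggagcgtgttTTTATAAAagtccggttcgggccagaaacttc
Gja5: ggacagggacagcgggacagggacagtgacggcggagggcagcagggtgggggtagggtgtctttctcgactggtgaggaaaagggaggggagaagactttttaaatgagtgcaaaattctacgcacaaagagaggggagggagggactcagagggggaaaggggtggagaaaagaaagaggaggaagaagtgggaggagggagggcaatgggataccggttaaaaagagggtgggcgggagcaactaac
Gja4: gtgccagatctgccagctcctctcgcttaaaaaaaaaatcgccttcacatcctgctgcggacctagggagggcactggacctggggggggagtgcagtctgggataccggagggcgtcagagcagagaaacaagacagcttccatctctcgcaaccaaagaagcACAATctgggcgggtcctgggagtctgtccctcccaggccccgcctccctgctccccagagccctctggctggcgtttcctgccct
Efnb2: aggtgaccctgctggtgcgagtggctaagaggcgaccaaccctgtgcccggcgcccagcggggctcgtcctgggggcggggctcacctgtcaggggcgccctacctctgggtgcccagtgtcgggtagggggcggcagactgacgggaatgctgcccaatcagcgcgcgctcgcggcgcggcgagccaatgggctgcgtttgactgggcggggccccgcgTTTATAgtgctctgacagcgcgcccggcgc
Cxcr4 held TATA letters on both strands, in matches that overlap and begin 32 (TTTATA) and 30 (TATAAA) bases before the start. Efnb2 held only the reverse letters TTTATA, which begin 30 bases before its start, and no TATAAA along the gene. The SOX core stood 86 bases before the start of Gja4. Over the 9 promoters of these 8 genes (Fbln5 has a pair of starts), a TATA match was found in 2, against 12.4% of the 32851 promoters in the table. The SOX core was found in 2 of 9, in Gja4 and Bmx, against 27.7% of all promoters. The RBPJ letters of Notch signalling (TGGGAA or TTCCCA, on either strand) were found in 2 of 9, in Bmx and Fbln5, against 21.6%. G and C made up 45.6% (Bmx) to 72.0% (Efnb2) of the members' promoters, with a median of 52.4% over all promoters. A match is a description of letters, and these shares were not tested.

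Across the 10 markers, none passed the test between labels. Limma's moderated test with Benjamini-Hochberg adjustment called 0 of 10 at an adjusted p under 0.05, and 0 of 10 had an unadjusted p under 0.05. Over all tested genes 0% were called (0 of 16637), and 3.34% (556 genes) had an unadjusted p under 0.05. The labels were free of overlap in 0 of 10 markers, against 2.45% of all tested genes. Of the 10, 5 had higher and 5 had lower means on the KO arrays, where 54.4% of all tested genes were higher, and the median difference was 0.05 against 0.02 over all tested genes (log2). With each array centred on its median, 8 of 10 markers and 68.7% of all tested genes were higher. Cxcr4 (0.79) and Gja5 (0.51) had differences above the 95th percentile of all tested genes (0.33), and the other 8 lay between -0.13 and 0.12. The median 95% confidence interval reached 0.45 log2 units to either side of a marker's difference, and 0.35 over all tested genes.

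**Figure D1:**
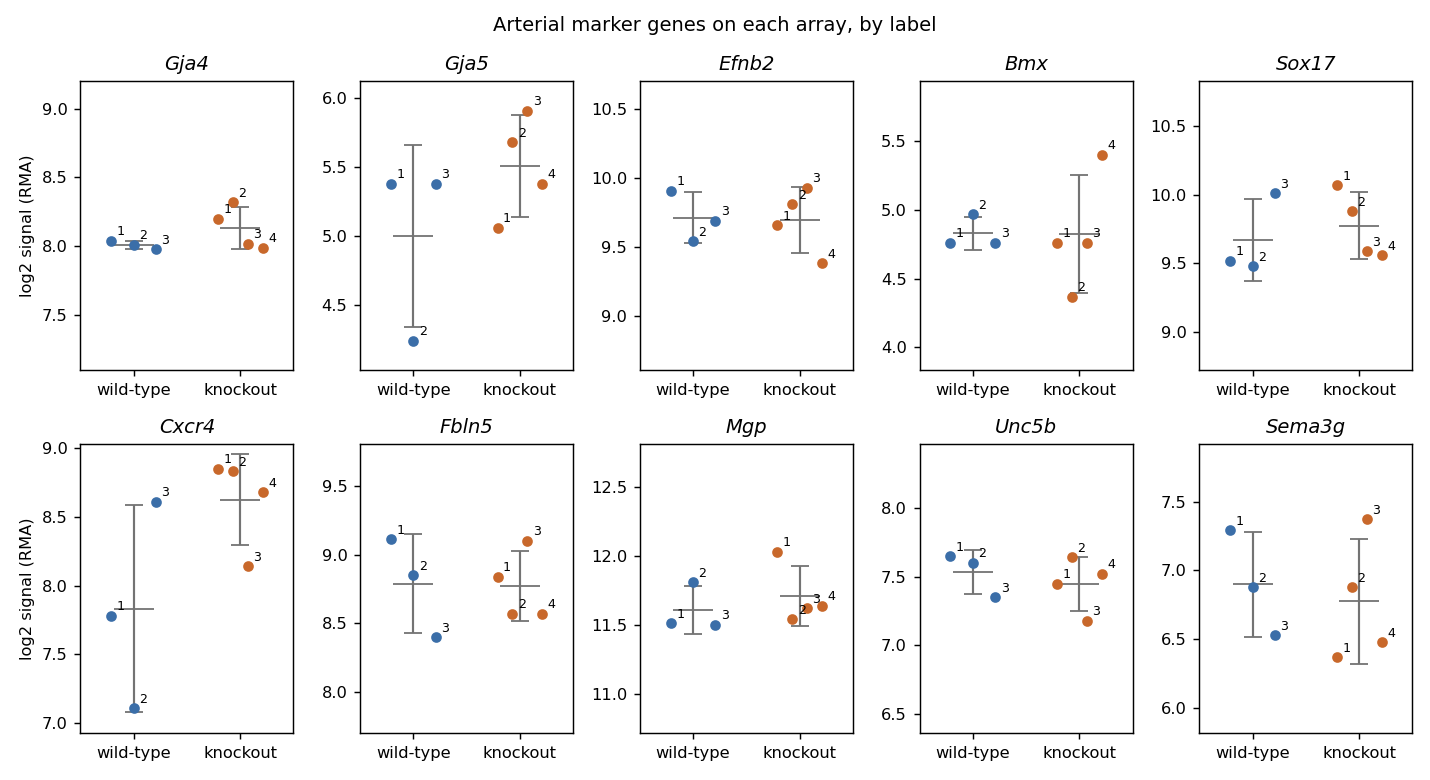
Log2 signal (y axis) of each of the 10 arterial markers on each array, grouped by label (x axis), with every panel spanning the same number of log2 units. Numbered points are arrays, and grey bars give the mean and SD of 3 WT and 4 KO arrays. Cxcr4 and Gja5 spread most, from 7.11 to 8.85 and from 4.24 to 5.91, and the labels overlap in every panel.

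Cxcr4, the receptor for the chemokine CXCL12, varied most of the 10. It measured 7.78, 7.11 and 8.61 on WT 1 to 3, and 8.85, 8.83, 8.14 and 8.68 on KO 1 to 4. KO 1, 2 and 4 lay above every WT array, while KO 3 lay below WT 3. Those 2 arrays are also the ones whose Sash1 value lay within the range of the other label, which does not check the labels. Means were 7.83 ± 0.75 (SD, n = 3) and 8.63 ± 0.33 (SD, n = 4). The KO mean was higher by 0.79 (SE 0.35, 95% confidence interval -0.03 to 1.62). That is 173% of the WT level (97.6% to 307%), with limma's adjusted p at 0.971 and an unadjusted p of 0.0579. Only 0.457% of all tested genes had a larger difference in size, and 2.01% had a larger SD over the 7 arrays.

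Single arrays moved this value. Without WT 2, which was lowest, Cxcr4 differed by 0.43. Leaving out WT 3 gave 1.18 (unadjusted p = 0.0051, adjusted p = 0.469 in limma). WT 3 held the highest WT value of Cxcr4 and KO 3 the lowest KO value. A fit without both was thus bound to give a larger difference, and its p-values are no added evidence. This fit, chosen after seeing the data, gave 1.34 (95% confidence interval 0.77 to 1.92), with an unadjusted p of 0.0020 and an adjusted p of 0.256 in limma. That was the smallest adjusted p of any marker over the 17 alternative fits. In that same fit 10.7% of all tested genes had an unadjusted p under 0.05, and of the other markers Sema3g was at -0.51, Fbln5 at -0.32 and Sox17 at 0.34 (limma's unadjusted p = 0.0665, 0.0795 and 0.111).

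The genes that act with Cxcr4 were read beside it. Its ligand gene Cxcl12 measured 9.17, 8.85 and 9.29 on the WT arrays and 9.26, 9.41, 9.67 and 9.37 on the KO arrays, a difference of 0.32 (95% confidence interval -0.01 to 0.66, adjusted p = 0.971 in limma). All but KO 1 lay above every WT value, and the difference was 0.20 without WT 2. Ackr3, a receptor that takes up CXCL12 without classical signalling, ran 7.54, 7.33 and 6.69 against 6.53, 6.52, 7.61 and 6.64, a difference of -0.36 (-1.12 to 0.40). The Ackr3 difference ran from -0.185 without WT 1 to -0.62 without KO 3. Without WT 3 (its lowest WT value) and KO 3 (its highest KO value) it was -0.87. Ackr3 was high on WT 1, WT 2 and KO 3, the 3 on which Cxcr4 was low.

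Immediate early and stress genes also varied between arrays. The mean of 15 such genes was 8.98, 8.73 and 7.33 on the WT arrays and 8.47, 7.30, 9.29 and 6.69 on the KO arrays. On the KO arrays 13 of 15 were lower, where 54.4% of all tested genes were higher, and 0 were called. The spread ran across the labels, as KO arrays held both the highest and the lowest mean. The mean was high on the 3 arrays with low Cxcr4, though KO 1 had high values of both. Leukocytes, which also use Cxcr4, were read through 12 marker genes. Their mean was 6.26, 5.97 and 5.62 on the WT arrays and 5.88, 5.58, 5.99 and 4.67 on the KO arrays, so KO 4 stood apart. Of the 12, 11 were lower on the KO arrays, where 54.4% of all tested genes were higher, and 0 were called. Ptprc, which encodes CD45, measured 4.70, 4.85 and 4.45 against 4.57, 4.72, 4.57 and 3.51. Its difference was -0.32, and -0.05 without KO 4. Array signal has no true 0, and the part of these genes in the Cxcr4 values was not tested.

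**Figure D2:**
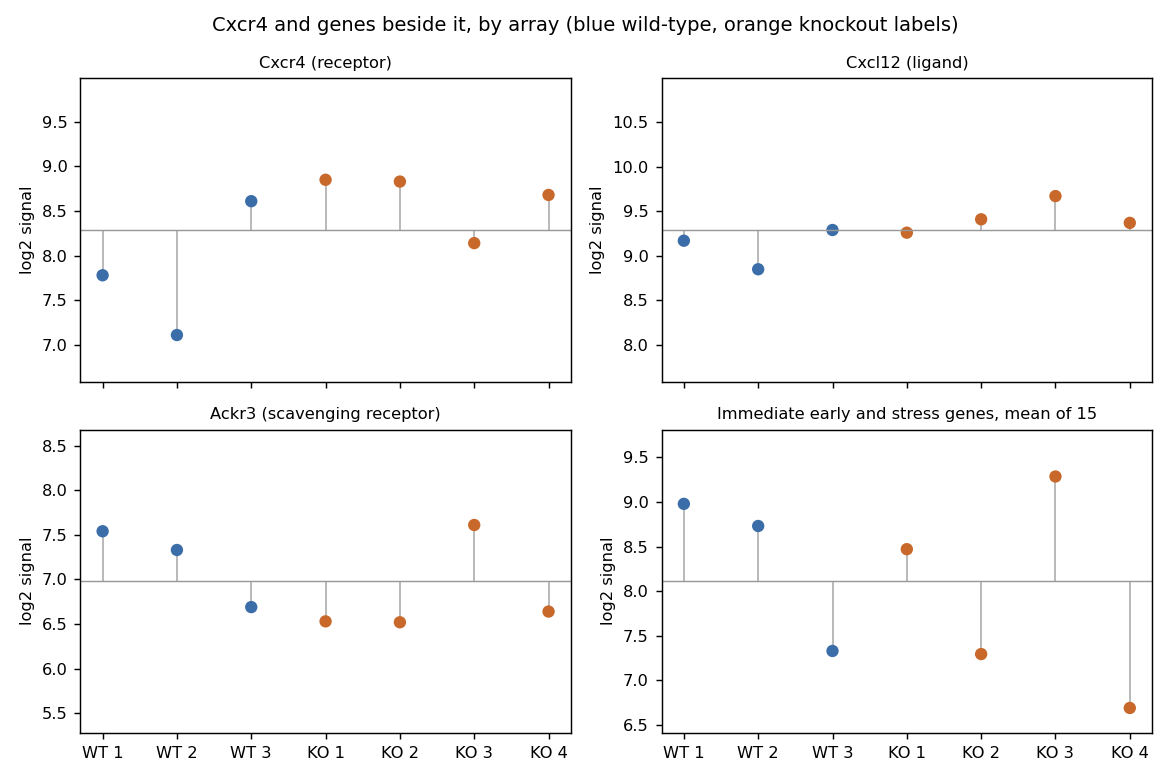
Log2 signal (y axis, same span in each panel) of Cxcr4, its ligand gene Cxcl12, the scavenging receptor gene Ackr3 and the mean of 15 immediate early and stress genes, on each array (x axis, WT for wild-type and KO for knockout labels). Horizontal lines are means over 7 arrays. Cxcr4 is lowest on WT 1 and 2 and KO 3, where Ackr3 reads 7.54, 7.33 and 7.61.

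The arterial connexins form gap junction channels that pass small molecules and current between endothelial cells. Gja5, which encodes the connexin Cx40, measured 5.38, 4.24 and 5.38 on the WT arrays and 5.06, 5.68, 5.91 and 5.38 on the KO arrays. WT 2 stood apart at the low end, and the labels overlapped among the other 6 arrays. Gja5 was a dim marker, around the array medians of all tested genes (5.30 to 5.41), so a percent of its level is rough. The means differed by 0.51 (SE 0.33, 95% confidence interval -0.27 to 1.28, adjusted p = 0.971 in limma), which is 142% of the WT level (83.1% to 243%). Without WT 2 it was 0.13 (limma unadjusted p = 0.616, adjusted p = 1.0). Cxcr4 and Gja5 thus shared their lowest array, and both differences shrank without it.

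Gja4, which encodes the connexin Cx37, was the steadiest marker. Values were 8.04, 8.01 and 7.98 on the WT arrays and 8.20, 8.32, 8.02 and 7.99 on the KO arrays. KO 1 and 2 lay above all WT arrays, and KO 3 and 4 lay among them. The difference was 0.12 (95% confidence interval -0.12 to 0.37), or 109% of the WT level (91.8% to 129%), and stayed between 0.06 and 0.17 with any 1 array left out. Gja1, which encodes the connexin Cx43, common to many cell types, differed by 0.29 (-0.26 to 0.83), by 0.49 without WT 2 and by 0.17 without KO 4. None of the 3 connexin genes passed the test (adjusted p = 0.971 for each in limma).

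Efnb2 encodes ephrin-B2, the membrane ligand that sets arteries apart from veins. It ran 9.91, 9.54 and 9.69 on the WT arrays and 9.66, 9.81, 9.93 and 9.38 on the KO arrays, where the KO arrays held both the highest and the lowest value. Its difference was -0.02 (95% confidence interval -0.38 to 0.35), a sign that turned with median centring (0.04) and without WT 1 (0.08) or KO 4 (0.09). Ephb4, the receptor gene on the venous side, was at 9.29, 8.99 and 8.74 against 8.60, 8.98, 9.17 and 8.84. It differed by -0.11 (-0.52 to 0.31), and by 0.03 without WT 1. Ligand and receptor both overlapped between labels.

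Sox17, a SoxF transcription factor of arterial endothelium, measured 9.52, 9.48 and 10.01 on the WT arrays and 10.07, 9.88, 9.59 and 9.56 on the KO arrays. High values on WT 3 and on KO 1 and 2 crossed the labels. The difference was 0.11 (95% confidence interval -0.33 to 0.54), and ran from 0.01 without KO 1 to 0.275 without WT 3. Its SoxF relatives Sox7 and Sox18 differed by 0.05 (-0.38 to 0.47) and 0.01 (-0.32 to 0.33), signs that turned when single arrays were left out, to -0.10 without WT 1 for Sox7 and to -0.10 without WT 3 for Sox18.

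Bmx, a tyrosine kinase gene of arterial endothelium on the X chromosome, was also dim and had few distinct values. It was at 4.76 on WT 1, WT 3, KO 1 and KO 3, at 4.97 on WT 2, at 4.37 on KO 2 and at 5.40 on KO 4. Such repeats were not rare, as 15.5% of all tested genes had at most 4 distinct values over the 7 arrays. The difference was -0.01 (95% confidence interval -0.54 to 0.53), a sign that turned with median centring or quantile normalization (0.05 each) and without WT 2 (0.06) or KO 1, 2 or 3 (0.01, 0.14 and 0.01). The arrays with low Xist, WT 1 and KO 2, had Bmx at 4.76 and 4.37. The difference was -0.04 with sex, as inferred from Xist and Y-linked genes, as a covariate.

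Fbln5 and Mgp belong to the vessel wall. Fbln5 encodes fibulin-5, which helps assemble elastic fibres, and measured 9.11, 8.85 and 8.40 on the WT arrays and 8.84, 8.57, 9.10 and 8.57 on the KO arrays. Every KO value lay within the WT range. The difference was -0.02 (95% confidence interval -0.50 to 0.46), a sign that turned with median centring (0.04), with quantile normalization (0.00) and when any of 4 arrays was left out (WT 1 or 2, KO 2 or 4), reaching 0.15 without WT 1. Eln, which encodes the elastin that fibulin-5 binds, ran 8.82, 9.01 and 8.31 against 8.80, 8.71, 9.07 and 8.39, a difference of 0.03 (-0.47 to 0.53). For Eln the lowest leave-one-out value was -0.17, without WT 3, on which both wall genes were lowest.

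Mgp encodes matrix Gla protein, which holds back calcification and binds BMPs. It measured 11.51, 11.81 and 11.50 on the WT arrays and 12.03, 11.54, 11.62 and 11.64 on the KO arrays. KO 1 stood highest and the other 6 overlapped. The difference of 0.10 (95% confidence interval -0.24 to 0.45) was -0.01 without KO 1 and 0.20 without WT 2. Fibroblasts and smooth muscle also make wall genes, so their markers were read on the same arrays. The mean of 10 fibroblast genes ran from 7.20 to 7.93 on the WT arrays and from 7.32 to 7.99 on the KO arrays. It was highest on KO 1. Of the 10 fibroblast genes 7 were higher on the KO arrays and 0 were called, against 54.4% and 0% of all tested genes. Tcf21 alone of these had no overlap between labels, against 2.45% of all tested genes. It differed by 0.47 (0.10 to 0.85, unadjusted p = 0.0207 and adjusted p = 0.971 in limma). For 10 smooth muscle and mural genes the ranges of the mean were 5.86 to 6.48 and 5.68 to 6.66. Of these 10, 5 were higher and 0 called, against the same shares of 54.4% and 0%. Their part in the Mgp and Fbln5 values was not tested.

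Unc5b and Sema3g belong to guidance pathways that vessels share with nerves. Unc5b, a netrin receptor gene, ran 7.65, 7.60 and 7.35 on the WT arrays and 7.45, 7.64, 7.18 and 7.52 on the KO arrays, with KO 3 lowest. The difference was -0.09 (95% confidence interval -0.40 to 0.23), 0.00 without KO 3 and -0.18 without WT 3. Robo4, whose protein binds UNC5B, differed by -0.13 (-0.44 to 0.18), and from -0.22 without KO 2 to -0.05 without KO 3. Sema3g, a secreted semaphorin gene of arterial endothelium, measured 7.29, 6.88 and 6.53 against 6.37, 6.88, 7.37 and 6.48. Its highest values were on KO 3 and WT 1, and its lowest on KO 1 and 4, so labels overlapped throughout. The difference was -0.13 (-0.78 to 0.53), a sign that turned without WT 1 (0.07) or KO 1 (0.01). The semaphorin receptor genes Nrp2 and Plxnd1 differed by 0.03 (-0.45 to 0.51) and -0.05 (-0.52 to 0.41). Their signs turned too, Nrp2 to -0.20 without WT 3, and Plxnd1 to 0.10 without KO 3 and to 0.00 with median centring.

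**Figure D3:**
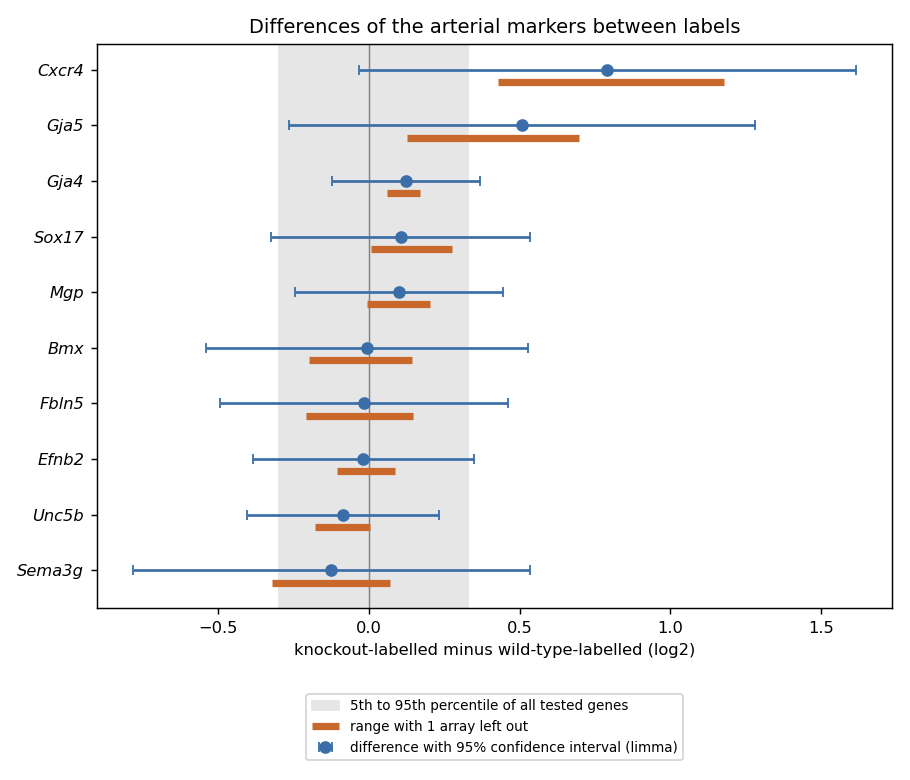
Difference between labels (x axis, knockout-labelled minus wild-type-labelled, log2) for each of the 10 markers (y axis). Points with bars are limma's differences with 95% confidence intervals, orange bars the range over fits that leave out 1 array, and the grey band the 5th to 95th percentile of all tested genes (-0.30 to 0.33). All 10 intervals include 0, and only Cxcr4 and Gja5 have points outside the band.

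Other arterial genes were read to place the 10 markers. Of 27 listed, Notch genes included, 16 had higher and 11 lower means on the KO arrays, where 54.4% of all tested genes were higher. The median difference was 0.03 against 0.02 over all tested genes, and 0 of 27 were called, against 0% of all tested genes. At an unadjusted p under 0.05 there were 2 of 27, against 3.34% of all tested genes. These were Dkk2, a secreted Wnt modulator gene of dim signal, and Nrp1, which encodes a VEGF co-receptor. Dkk2 was at 4.49, 4.51 and 5.14 on the WT arrays and 5.15, 5.15, 5.71 and 5.38 on the KO arrays, without overlap, though WT 3 and the lowest KO arrays nearly met. It differed by 0.63 (95% confidence interval 0.14 to 1.13, adjusted p = 0.971 in limma). Nrp1 was at 9.17, 9.25 and 9.76 against 9.80, 9.93, 9.72 and 9.77, a difference of 0.41 (0.05 to 0.77, adjusted p = 0.971 in limma), with WT 3 again beside the KO arrays. The Notch ligand genes Jag2 and Jag1 differed by -0.24 (-0.55 to 0.07) and -0.33 (-0.77 to 0.11), the receptor gene Notch4 by 0.18 (-0.08 to 0.44) and Stmn2 by 0.27 (-0.16 to 0.70). Single arrays moved these as well, Jag2 to -0.105 and Jag1 to -0.17 without WT 1, Notch4 to 0.07 without WT 2, and Stmn2 to 0.14 without KO 3. Counts at an unadjusted p under 0.05 moved with the arrays used, and so did the share of all tested genes. Without WT 1 or WT 2 there were 0 of 27, against 2.75% and 1.77% of all tested genes. Without KO 2 or KO 4 there was 1 of 27, against 3.33% and 2.37%. Without WT 3 there were 4 of 27 against 7.9%, and without both WT 3 and KO 3 there were 8 of 27 against 10.7%. The fit without both was chosen after seeing the data, so its count is no added evidence. Limma called 0 in each of these fits.

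Partner genes of the markers (receptors, ligands, relatives and matrix partners) were measured for 27 of 28 listed, with Eln on both lists. Of the 27, 17 had higher and 10 lower means on the KO arrays, where 54.4% of all tested genes were higher. The median difference of the partner genes was 0.05. Of these genes, 0 were called and 0 had an unadjusted p under 0.05, against 0% and 3.34% of all tested genes. Beside Cxcl12, the smallest unadjusted p values belonged to Plxna2, a plexin gene (-0.65, 95% confidence interval -1.39 to 0.08), the ephrin receptor genes Ephb3 (0.23, -0.05 to 0.51) and Epha4 (0.59, -0.29 to 1.47), the channel gene Panx1 (0.32, -0.11 to 0.76) and Bmp2 (-0.59, -1.53 to 0.35). Leaving out WT 3 gave -1.075 for Plxna2 (adjusted p = 0.469 in limma), 0.96 for Epha4 and 0.15 for Ephb3. Epha4 was 0.29 without WT 2, Bmp2 was -0.28 without WT 1, and Panx1 was 0.215 without WT 1. Epha4 ran 5.94, 5.48 and 6.83 against 6.59, 7.33, 6.13 and 6.64, low on the 3 arrays where Cxcr4 was low. Without WT 3 and KO 3, 5 of 27 partner genes had an unadjusted p under 0.05, against 10.7% of all tested genes, and 0 were called. This fit was chosen after seeing the data, so its count is no added evidence. The count at an unadjusted p under 0.05 was 3 without WT 3, against 7.9%, and 2 without KO 1 or KO 3, against 2.8% and 3.96%.

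**Figure D4:**
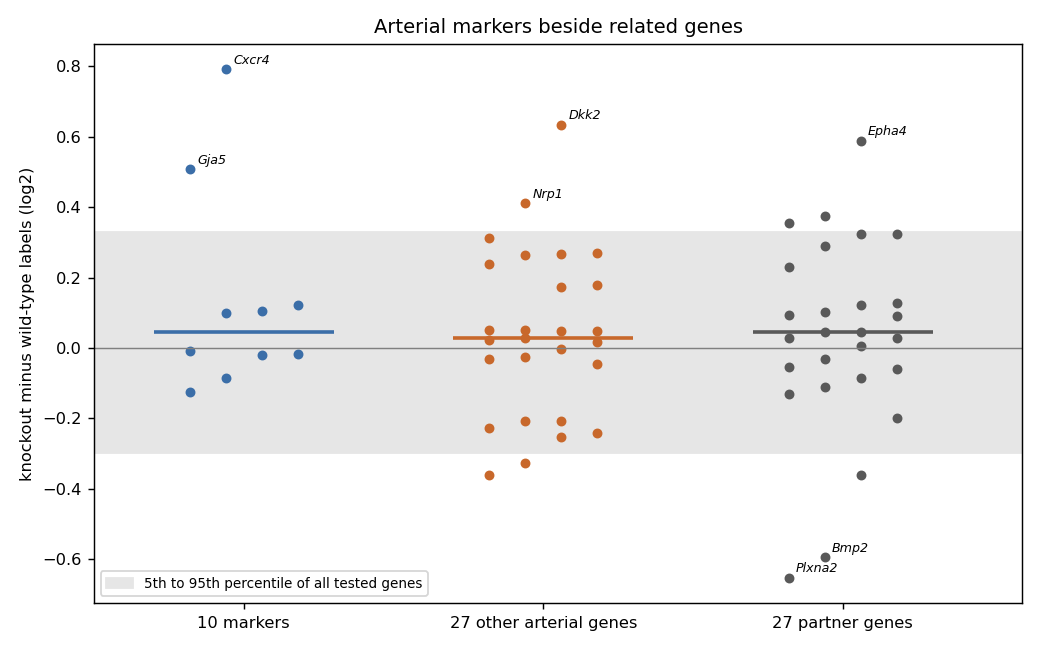
Differences between labels (y axis, knockout minus wild-type labels, log2) of the 10 markers, 27 other arterial genes and 27 partner genes (x axis). Each point is a gene, coloured bars are list medians (0.05, 0.03 and 0.05), and the grey band is the 5th to 95th percentile of all tested genes. Names are given for genes more than 0.38 from 0.

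Markers of the other vessel kinds were read in the same way. Of 10 venous genes 4 were higher on the KO arrays, where 54.4% of all tested genes were higher, with a median difference of -0.05. General capillary genes were higher in 6 of 10 (median 0.13), aerocyte genes, of the capillary cells at the gas exchange surface, in 6 of 9 (0.07), and lymphatic genes in 2 of 7 (-0.07). None of these genes was called, at 0% over all tested genes. The mean of the 10 arterial markers was 8.10, 7.85 and 8.02 on the WT arrays and 8.13, 8.15, 8.16 and 8.06 on the KO arrays, which overlapped.

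The genes whose pattern over the 7 arrays lay nearest were found for the 3 markers of largest SD, by the root mean square difference of log2 values centred on each gene's mean. For Cxcr4 these were Afg1l (0.158), Thap2 (0.176) and Zfp608 (0.208). Gja5 lay nearest to Olfr887 (0.147), to the general capillary gene Hpgd (0.153) and to Rsph3b (0.185). Sema3g had the closest neighbours, Apcdd1 (0.034), Srgn (0.075) and the Notch ligand gene Dll1 (0.080). Apcdd1, an inhibitor of Wnt signalling, ran 8.01, 7.60 and 7.30 on the WT arrays and 7.03, 7.60, 8.04 and 7.19 on the KO arrays, in step with Sema3g on each array. These neighbours were picked from all tested genes over 7 arrays and are a description.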

How the data were processed

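RNA of 3 wild-type-labelled (WT) and 4 Sash1-knockout-labelled (KO) samples was measured on single-colour Affymetrix arrays, 1 each. The authors deposited 1 log2 value per probe set and array, made with RMA in Affymetrix Expression Console 1.1 per the submitters' processing notes. RMA corrects background, applies quantile normalization and summarises probes. Their range showed the log2 scale, and the genome build behind the array annotation is not given in the sources used here. Arrays give no read depth; how many there are sets the precision.

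Gene names came from the platform annotation and were updated through RefSeq gene identifiers (GRCm38.p6, 99.2% found). Of 41345 probe sets, 23521 had 1 symbol, 1814 several and 16010 none listed. The brightest probe set stood for a gene, and the dimmest 25% of genes (5543, below 2.98) were not tested. The test between labels was limma 3.58.1 (lmFit, then eBayes, with genotype alone) in R 4.3.3, two-sided, with p-values adjusted over 16637 genes. The fit was also run on simulated data with independent noise for each gene, as a check of the code. That run does not show what the fit can detect on these arrays.

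The markers and lists were chosen with earlier results of these data known. Named genes were the 10 markers, the 6 genes of smallest unadjusted p in the other arterial and partner lists, direct partners (Ephb4, Cxcl12, Ackr3, Gja1, Nrp2, Plxnd1, Sox7, Sox18, Eln and Robo4), Sash1, Pecam1, Cdh5, Ptprc and Epcam, and the 3 nearest genes of the 3 markers of largest SD. Xist was added as a check of sex, which was inferred from the signal of Xist and Y-linked genes. Promoter letters were searched after the values were seen. Alternatives were no filter or a filter on the dimmest 50% of genes, quantile normalization, median centring, trend and robust moderation, array weights, the mean of probe sets, the replicate number as a block, sex as a covariate, leaving out each array, and, added after seeing the data, leaving out WT 3 and KO 3 together.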

Additional observations from a re-analysis of the deposited data

Results flagged for a closer look

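Among the 4 KO arrays, a gap to the nearest value above Dixon's limit was looked for in 36 genes, the 10 markers included, and chance gives such a gap in about 1 in 20 groups. None of the 10 markers had one. Ackr3, the scavenging receptor for CXCL12, was at 7.61 on KO 3, far above the other 3. Ptprc, which encodes CD45, was at 3.51 and Epcam, which encodes CD326, at 4.06 on KO 4, both far below the others.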

How the results depend on the processing

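Over 17 alternative fits, 0 of the 10 markers, 0 of the other arterial genes, 0 of the partner genes and 0 of all tested genes were called by limma in any. Cxcr4, Gja5, Gja4 and Sox17 stayed higher on the KO arrays in all of these fits. Among the markers, the signs that turned belonged to differences of 0.13 or less in size. With array weights Efnb2 was 0.030. Median centring gave 0.039 for Efnb2, 0.050 for Bmx and 0.041 for Fbln5, and quantile normalization 0.0505 for Bmx and 0.0001 for Fbln5. Sex as a covariate left Efnb2 at 0.00. With 1 array left out, ranges were -0.11 to 0.087 for Efnb2, -0.20 to 0.14 for Bmx, -0.21 to 0.15 for Fbln5, -0.0067 to 0.20 for Mgp, -0.18 to 0.0033 for Unc5b and -0.32 to 0.07 for Sema3g. Among partner genes, array weights turned Nrp2 to -0.12, Sox7 to -0.063, Sox18 to -0.073 and Eln to -0.090, the replicate block turned Nrp2 to -0.030 and Sox18 to -0.057, and median centring turned Plxnd1 to 0.0033. Leaving out WT 3 and KO 3 gave -0.21 for Nrp2, 0.18 for Plxnd1, -0.12 for Sox18 and -0.28 for Eln. With 1 array left out these ranged from -0.24 to 0.033 (Ephb4), -0.20 to 0.22 (Nrp2), -0.18 to 0.10 (Plxnd1), -0.095 to 0.17 (Sox7), -0.10 to 0.090 (Sox18) and -0.17 to 0.18 (Eln). The cause of these turns was not tested.

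Same-numbered arrays did not deviate together (correlations of -0.183, -0.200 and -0.552 over genes for numbers 1, 2 and 3, with 0 of 6 arrays closest to their own number), so the numbers were not taken as pairs. KO 4 has no WT array of its number, so the replicate block gives the same differences as leaving out KO 4. With the block, Efnb2 was 0.087, Fbln5 0.050 and Cxcr4 0.77 (unadjusted p = 0.175 in limma). In that fit 225 genes had an unadjusted p under 0.05, against 556 with genotype alone. Array weights gave 1310 such genes, leaving out WT 2 gave 295, leaving out WT 3 gave 1314, and leaving out both WT 3 and KO 3 gave 1779. For Cxcr4 the unadjusted p was also under 0.05 with array weights (0.0133), median centring (0.0308), quantile normalization (0.0489) and without KO 3 (0.0396), with adjusted p from 0.633 to 0.941 in limma. With 7 arrays, differences below about 0.45 were within a typical marker's interval.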
